A study of Mus musculus with 27 samples.

Results

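The genes described here are 10 that encode blood vessel growth signals, their receptors and proteins of the vessel lining in the mouse: the ligands Vegfa, Angpt1 and Angpt2, the receptors Kdr, Flt1, Tek, Tie1 and Eng, the adhesion molecule Pecam1 and the transporter Slco1c1. They were chosen by name, and every probe set annotated to exactly 1 of them was taken, which gave 17 of the 45101 probe sets on the array. Of these, 13 probe sets of 8 genes had enough signal to be tested, and Tie1 and Pecam1 did not. Where a gene has several probe sets, the one of highest mean signal comes first and the others follow.

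RNA of 27 cerebellar samples was hybridised to Affymetrix arrays, 1 array for each sample. In 19 samples the tumour arose where a cre transgene had switched on SmoM2, an active form of the Hedgehog signal transducer Smoothened. There were 3 from Math1-cre:SmoM2, 3 from Tlx3-cre:SmoM2, 7 from Olig2-tva-cre:SmoM2 and 6 from hGFAP-cre:SmoM2 mice. Another 2 held tumours of Ptc1+/- mice, which lack 1 copy of the Hedgehog receptor gene. Against these stood 6 samples of cerebellum without tumour, from Olig2-tva-cre:SmoM2 (controls 1 and 2), hGFAP-cre:SmoM2 (control 3), Mxi1-cre:SmoM2 (controls 4 and 5) and Ptc1+/- mice (control 6), so the controls carry the mutant alleles too. The labels give neither ages nor the animals behind each replicate, so the p-values below cover sample-to-sample spread only, part of which may be technical. As background, Math1-cre is active in granule neuron precursors, while hGFAP-cre and Olig2-tva-cre act in earlier, broader progenitors, and SmoM2 is expressed in the cells that cre reaches and their descendants. The RNA is of whole tissue, in which vessel cells are a minority.

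Vegfa protein is secreted by cells short of oxygen and by many tumours, and drives endothelial cells to divide and sprout. It signals through Kdr (VEGFR2), while Flt1 (VEGFR1) binds it tightly and mostly holds it back. Angpt1 stabilises vessels through the receptor Tek (Tie2), and Angpt2, stored and released by activated endothelium, competes with it at Tek and loosens the vessel wall. Tie1 is a partner of Tek, Eng is a co-receptor for TGF-beta family ligands, Pecam1 joins endothelial cells to each other, and Slco1c1 carries thyroid hormone across the blood-brain barrier and is also found in astrocytes.

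In the tumours Vegfa, Tek, Flt1 and Slco1c1 were lower than in cerebellum without tumour, and Angpt2 was higher (21 against 6 arrays, with the error of each value given with its gene). Vegfa was 3.08-fold and Tek 2.12-fold lower, with some tumour arrays at the floor, and Flt1 was 1.90-fold and Slco1c1 1.39-fold lower. Each tumour group had equal weight, and by group Slco1c1 passed in the 2 Ptc1+/- tumours but in no SmoM2 group. Its call over all tumours was lost when any of 7 single arrays was left out. A second probe set of Vegfa and 1 other of Flt1 did not pass the test. Angpt2 was 2.74-fold higher, with some control arrays at the floor. It had passed the signal filter on 8 tumour arrays and no control array, so its entry into the test depended on where it was high. Tek had passed it on 2 tumour and 4 control arrays, where 3 were needed, so the entry of Tek depended on the controls. Kdr, Angpt1 and Eng did not pass the test. Of 12 tested general endothelial markers 1, Sox18, was called higher and 2, Sox17 and Itm2a, lower. The mean log2 signal of the 11 without Sox18 was 6.10 over the tumour groups, against 6.42 in the controls, a difference of −0.32. With that mean as a covariate, an alternative chosen after seeing the data, Tek, Flt1 and Slco1c1 were no longer called while Vegfa and Angpt2 still were. With the mean of all 12 markers, Sox18 included, all 5 genes stayed called, Tek at −1.12, Flt1 at −0.94 and Slco1c1 at −0.50. No gene of the 8 separated all tumours from all controls, as 8.14% of all genes did upward and 9.68% downward. In all, 5 of the 8 tested genes were called, 1 higher and 4 lower, in a comparison that called 51.4% of all 13527 genes (26.4% higher and 25.0% lower). With so many genes changed between tumour and cerebellum, that share is close to the background and is no result about these genes as a set. Their median difference was −0.30, against 0.02 over all genes.

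Promoter sequences of 7 of the 10 genes were found in the RefSeq table (mouse build GRCm38.p6). Those of the 4 genes that were lower are shown together, because they moved the same way, with Kdr, the main VEGF receptor, which did not pass the test. Each runs 5′ to 3′ over 300 bases, 250 before and 50 after the annotated start. Capitals mark AGGAA or its reverse complement, the core bound by ETS factors. They also mark ACGTG or its reverse complement, a form of the core of hypoxia response elements. Other forms of that core, and sequence outside the windows, were not searched. The source holds 2 windows for Vegfa, and only the one at the outermost start was used.
Vegfa, chr17:46032328-46032627, minus strand: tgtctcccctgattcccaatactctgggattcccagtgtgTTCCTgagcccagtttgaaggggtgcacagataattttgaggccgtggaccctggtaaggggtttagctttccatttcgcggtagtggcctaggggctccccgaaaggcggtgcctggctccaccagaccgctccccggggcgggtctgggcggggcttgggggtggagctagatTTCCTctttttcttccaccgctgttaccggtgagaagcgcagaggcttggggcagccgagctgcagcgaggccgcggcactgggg
Flt1, chr5:147725962-147726261, minus strand: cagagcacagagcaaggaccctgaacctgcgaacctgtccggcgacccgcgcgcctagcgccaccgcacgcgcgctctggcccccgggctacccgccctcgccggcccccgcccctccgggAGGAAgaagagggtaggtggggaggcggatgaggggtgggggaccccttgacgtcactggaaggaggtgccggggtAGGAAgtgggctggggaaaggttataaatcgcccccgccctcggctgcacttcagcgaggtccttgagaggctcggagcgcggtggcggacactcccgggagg
Tek, chr4:94739039-94739338, plus strand: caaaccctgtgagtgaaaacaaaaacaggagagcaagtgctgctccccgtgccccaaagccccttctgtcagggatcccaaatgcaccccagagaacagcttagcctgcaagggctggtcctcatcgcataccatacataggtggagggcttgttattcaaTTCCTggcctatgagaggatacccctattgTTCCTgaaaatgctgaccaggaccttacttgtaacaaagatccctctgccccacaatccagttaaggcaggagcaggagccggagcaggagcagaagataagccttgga
Slco1c1, chr6:141524104-141524403, plus strand: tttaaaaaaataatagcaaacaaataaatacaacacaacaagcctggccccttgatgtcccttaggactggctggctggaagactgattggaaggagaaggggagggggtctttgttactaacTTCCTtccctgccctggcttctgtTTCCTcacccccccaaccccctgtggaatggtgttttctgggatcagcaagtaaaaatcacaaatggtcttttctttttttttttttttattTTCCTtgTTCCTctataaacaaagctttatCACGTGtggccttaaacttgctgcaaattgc
Kdr, chr5:75978406-75978705, minus strand: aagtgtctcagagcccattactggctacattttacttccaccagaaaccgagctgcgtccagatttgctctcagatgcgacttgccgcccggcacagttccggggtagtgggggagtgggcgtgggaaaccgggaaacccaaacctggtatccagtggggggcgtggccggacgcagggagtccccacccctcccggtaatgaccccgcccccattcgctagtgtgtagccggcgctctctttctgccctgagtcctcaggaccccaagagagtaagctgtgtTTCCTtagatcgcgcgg
AGGAA was present on either strand 2 times in the Vegfa window, 2 times in Flt1, 2 times in Tek, 4 times in Slco1c1 and once in Kdr, with no overlap between the motifs. Of all 32851 promoter windows of this length, 66.7% hold AGGAA. The hypoxia core occurred in the Slco1c1 window alone, as 2 matches that overlap on opposite strands, and 19.6% of all windows hold it. These are letter matches within the windows and no evidence of binding.

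Values below are log2 signals after each array was scaled to a common level, and signals under 3.37 were set to that floor. Where a difference is worded as a minimum, only this floor is meant. Sampling error and other settings can make its size smaller. Differences come from 1 limma model of 6 group means, and p-values were adjusted by Benjamini and Hochberg's method across the 30107 tested probe sets, with 0.05 as the limit for a call. Levels of different probe sets are not compared with each other. In whole tissue, fewer cells of a type and less RNA per cell cannot be told apart.

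Vegfa had log2 signals of 3.37 (the floor), 6.04 and 6.92 in the Math1 tumours, 6.32, 5.81 and 5.61 in the Tlx3 tumours and 6.12 and 5.66 in the Ptc1+/- tumours. The Olig2 tumours had a lowest, median and highest of 4.69, 5.83 and 6.83, and the hGFAP tumours 3.37, 5.73 and 6.97, against 6.81, 7.37 and 7.53 in the controls. Every tumour array lay below the control median, and 18 of 21 lay below every control. The others, at most 6.97, lay between control 6, at 6.81, and the next control, at 7.32. The tumour groups averaged 5.68, against 7.31 in the controls, a log2 difference of −1.62 (SE 0.43, 95% interval −2.50 to −0.75, limma adjusted p = 0.00227). With 2 tumour arrays at the floor, the size of this difference is a minimum.

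The difference in Vegfa was −1.86 in Math1 (adjusted p = 0.024), −1.39 in Tlx3 (0.0917) and −1.54 in Olig2 tumours (0.0126), −1.92 in hGFAP (0.00409) and −1.41 in Ptc1+/- tumours (0.149). It passed the test in 3 of the 5 groups, and the group means lay close together, with an adjusted p of 0.880 for differences among the 4 SmoM2 groups. The Math1 call rested on the array at the floor: without it the difference was −0.83 (adjusted p = 0.393). A second Vegfa probe set, nearer the floor, gave −0.69 over all tumours (adjusted p = 0.169), with 7 tumour arrays and 1 control array at the floor. In the Olig2 tumours it gave 0.21 (adjusted p = 0.756), with 3 of 7 arrays above every control and none at the floor. With the mean of both probe sets the Olig2 difference was −0.67 (adjusted p = 0.133), so the Olig2 call rests on the main probe set.

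Angpt2 was the ligand that rose. Its log2 signals were 6.01, 5.49 and 5.47 in the Math1 tumours, 5.58, 5.52 and 5.42 in the Tlx3 tumours and 5.75 and 5.19 in the Ptc1+/- tumours. The Olig2 tumours ran from 4.19 over a median of 5.31 to 6.19, and the hGFAP tumours from 4.81 over 5.11 to 6.16, against 3.37, 3.66 and 5.05 in the controls. The controls were split, as 4 lay between 3.37 and 3.73, 2 of them at the floor, while control 6 from a Ptc1+/- mouse had 4.78 and control 4 from a Mxi1-cre:SmoM2 mouse 5.05. All tumour arrays were above the control median and 17 of 21 above every control.

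The tumour groups averaged 5.43 for Angpt2, against 3.98 in the controls, a difference of at least 1.45 (SE 0.28, 95% interval 0.88 to 2.02, limma adjusted p = 7.52e-05). Each tumour group passed the test, with 1.68 in Math1 (adjusted p = 0.0022), 1.53 in Tlx3 (0.00497) and 1.25 in Olig2 tumours (0.00237), 1.32 in hGFAP (0.00255) and 1.49 in Ptc1+/- tumours (0.0174). In the Math1, Tlx3 and Ptc1+/- groups every array exceeded every control, as was also true of 22.7%, 22.9% and 24.0% of all genes in those comparisons. Angpt2 passed the signal filter on 8 tumour arrays and no control array, so its entry into the test depended on the group in which it was high. Without rescaling of the arrays the call was lost in Olig2 (0.81, adjusted p = 0.0888), hGFAP (1.04, 0.0566) and Ptc1+/- tumours (0.55, 0.457), and in Ptc1+/- tumours also with array weights (1.46, 0.0749). With Ptc1+/- replicate 1 left out, the difference of the remaining array was 1.21 (adjusted p = 0.171). A second Angpt2 probe set was not tested, being at the floor on 17 arrays, all 6 controls among them.

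Angpt1, the stabilising ligand, spread widely among the tumours. Its log2 signals were 7.70, 7.82 and 7.37 in Math1, 7.97, 7.22 and 6.67 in Tlx3, and 6.95 and 7.81 in Ptc1+/- tumours. Olig2 tumours lay between 6.81 and 8.92 (median 7.25) and hGFAP tumours ran from 6.64 over 7.27 to 8.22, against 6.61, 6.91 and 7.50 in the controls. Olig2 replicates 1, 2 and 5, with 8.92, 8.76 and 8.18, stood above every control, and 9 of the 21 tumour arrays did so. The difference over all tumours, 0.55 (SE 0.28, 95% interval −0.03 to 1.13), did not pass the test (limma adjusted p = 0.117). It was 0.71 (adjusted p = 0.00998) without the 7 arrays of lowest brightness, where that of the Olig2 tumours was 1.90 (adjusted p = 0.000182) and carried by the 2 arrays left. The second Angpt1 probe set, at the floor on 8 tumour and 5 control arrays, gave 0.70 over all tumours (adjusted p = 0.162) and 1.63 in the Olig2 tumours (adjusted p = 0.00576). It passed the signal filter on 5 tumour arrays and no control array, so its entry into the test too depended on where it was high.

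**Figure D1:**
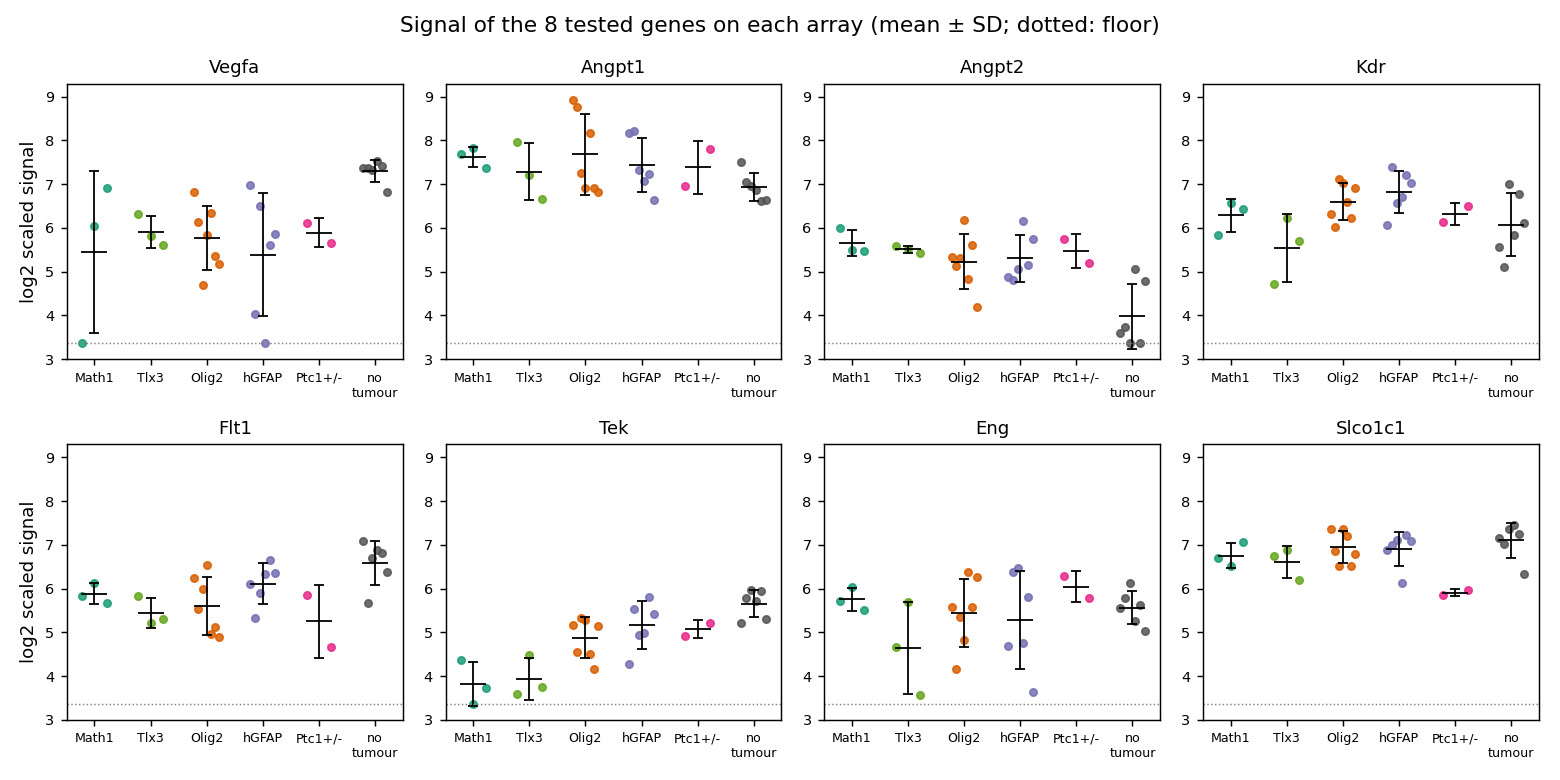
Log2 signal (vertical axis, scaled; floor 3.37) of the main probe set of each of the 8 tested genes, 1 point per array, with the mean and SD of each group; the 5 tumour groups stand left of the controls. Tumour points of Vegfa lie mostly under the controls (18 of 21 below every control), as do those of Tek (15 of 21), and those of Angpt2 over them (17 of 21 above every control).

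Tek, the angiopoietin receptor, was lower in the tumours and had the widest spread of SmoM2 group means among the main probe sets of the 8 genes (1.35). The second probe sets of Vegfa and Angpt1, with many values at the floor, spread by 1.67 and 1.63. The log2 signals of Tek were 4.37, 3.37 and 3.72 in Math1, 3.59, 4.49 and 3.74 in Tlx3, and 4.92 and 5.22 in Ptc1+/- tumours. The Olig2 tumours ran from 4.16 over a median of 5.15 to 5.32 and the hGFAP tumours from 4.28 over 5.21 to 5.81, against 5.22, 5.75 and 5.98 in the controls. The 6 Math1 and Tlx3 arrays were all below 4.50 and below every control, while the hGFAP arrays overlapped the controls. No overlap with the controls, in the lower direction, was found for 20.6% of all genes in Math1 and 23.5% in Tlx3 tumours.

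Over all tumours Tek averaged 4.57, against 5.66 in the controls, a difference of −1.08 (SE 0.24, 95% interval −1.58 to −0.59, limma adjusted p = 0.000453), a minimum in size since 1 tumour array was at the floor. Of the 21 tumour arrays 15 were below every control. The difference was −1.84 in Math1 (adjusted p = 0.000182), −1.72 in Tlx3 (0.00042) and −0.78 in Olig2 tumours (0.0259), −0.50 in hGFAP (0.195) and −0.59 in Ptc1+/- tumours (0.305). The signal of Tek is low, above the filter on 2 tumour and 4 control arrays. Since 3 arrays were needed, the entry of Tek into the test depended on the controls, where it was high. The Olig2 call was lost when Olig2 replicate 5 or 6 or control 3 or 5 was left out.

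Tested directly, hGFAP and Olig2 tumours had Tek 1.14 higher than Math1 and Tlx3 tumours (SE 0.25, 95% interval 0.63 to 1.66), with 11 of the 13 arrays above all 6. The limma adjusted p was 0.0644. Over 14 alternatives it ran from 0.0114 to 0.290, and the difference from 0.38 to 1.17. The test passed in 4, those that used 1 probe set for each gene, the mean of a gene's probe sets, no trend in the moderation, or array weights. It passed in 1 of the 27 fits that leave out 1 array. Dim arrays and high 3′ to 5′ ratios, described below, occurred in hGFAP and Olig2 but not in Math1 and Tlx3 tumours. Over the 4 SmoM2 groups together, the F test gave an adjusted p of 0.0747. The endothelial markers moved in the same direction, as their mean log2 signal was 6.43 ± 0.18 in Olig2 and 6.61 ± 0.35 in hGFAP tumours, against 6.38 ± 0.16 in Math1 and 6.13 ± 0.15 in Tlx3 tumours (SD, n = 7, 6, 3 and 3). None of the 12 was called, where 0.0296% of all genes were. Their median difference was 0.45, against 0.02 over all genes, and this was not particular to them. The fibroblast, basement membrane and choroid plexus lists, described below, had medians of 0.76, 0.63 and 0.53. The barrier transport, myeloid and mature granule neuron lists went the other way. With the endothelial marker mean as a covariate the Tek difference between these tumour groups was 0.79 (adjusted p = 0.190), and with the mean of the list without Sox18 it was 0.52 (adjusted p = 0.684).

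The covariate without Sox18, chosen after seeing the data, also bears on the comparison with controls, where the list mean was lower in tumours. There Tek was −0.55 (limma adjusted p = 0.0974), Flt1 −0.71 (0.0794) and Slco1c1 −0.21 (0.498), none of them called. Vegfa was −1.91 (adjusted p = 0.00558) and Angpt2 1.58 (0.000687), both called. By group, the calls lost were those of Tek in Tlx3 (−0.61, adjusted p = 0.394) and Olig2 tumours (−0.37, 0.296), and of Flt1 in Tlx3 (−0.68, 0.443), Olig2 (−0.81, 0.0502) and Ptc1+/- tumours (−1.14, 0.0645). Kdr in hGFAP tumours then passed (0.80, adjusted p = 0.0404). With Sox18 in the mean, which then differed by 0.03 between tumours and controls, all 5 stayed called over all tumours, but Flt1 in Tlx3 tumours did not (−1.02, adjusted p = 0.0518).

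Flt1 is measured by 4 probe sets. That with the highest mean had log2 signals of 5.84, 6.14 and 5.66 in Math1, 5.83, 5.21 and 5.30 in Tlx3, and 5.85 and 4.66 in Ptc1+/- tumours. The Olig2 tumours ran from 4.89 over a median of 5.52 to 6.53 and the hGFAP tumours from 5.32 over 6.22 to 6.65, against 5.66, 6.76 and 7.10 in the controls. All 21 tumour arrays were below the control median and 8 below every control, so the ranges overlapped. The tumour groups averaged 5.66, against 6.59 in the controls, a difference of −0.93 (SE 0.25, 95% interval −1.44 to −0.41, limma adjusted p = 0.00311). It was −0.71 in Math1 (adjusted p = 0.16), −1.14 in Tlx3 (0.019) and −0.98 in Olig2 tumours (0.00757), −0.48 in hGFAP (0.239) and −1.33 in Ptc1+/- tumours (0.0192). The Ptc1+/- call rested on replicate 2, without which the difference was −0.74 (adjusted p = 0.394), and the Tlx3 call was lost without Tlx3 replicate 2 or 3.

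The other Flt1 probe sets did not all move alike. One gave −1.86 over all tumours (limma adjusted p = 1.82e-05), with 16 of 21 tumour arrays below every control and 5, both Ptc1+/- arrays among them, at the floor. This probe set passed the signal filter on 1 tumour array and 5 control arrays, so its entry into the test depended on the controls, where it was high. Another gave −0.87 (adjusted p = 0.0335), and the last −0.13 (95% interval −0.59 to 0.33, adjusted p = 0.667). Flt1 makes membrane-bound and soluble forms, and which form each probe set reads was not examined here.

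**Figure D2:**
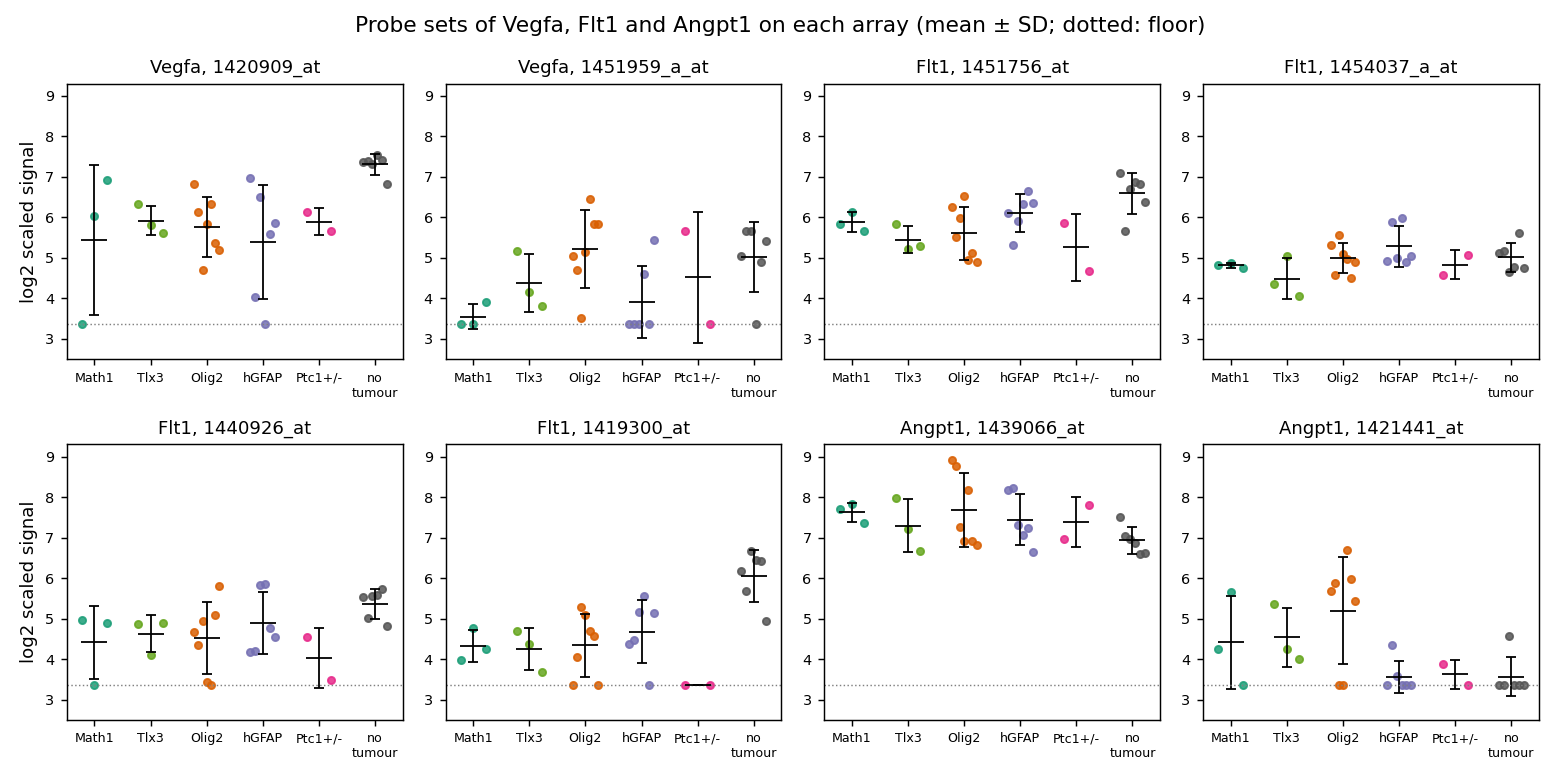
Log2 signal (vertical axis) of the tested probe sets of Vegfa, Flt1 and Angpt1, by array, with group mean and SD; tumour groups stand left of the controls. Of the Flt1 probe sets 3 were lower in tumours and 1, at −0.13, was not. Among the 3, the one that fell most had passed the signal filter through the controls. The second Vegfa probe set lies nearer the floor than the first.

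Kdr, the main signalling receptor for Vegfa, did not pass the test in any tumour group. Its log2 signals were 5.85, 6.57 and 6.43 in Math1, 4.71, 6.22 and 5.69 in Tlx3, and 6.14 and 6.50 in Ptc1+/- tumours. Olig2 tumours lay between 6.02 and 7.12 (median 6.58) and hGFAP tumours ran from 6.07 over 6.87 to 7.38, against 5.11, 5.97 and 7.01 in the controls. Tumours and controls overlapped, and 5 tumour arrays were above and 1 below every control. The difference over all tumours was 0.25 (SE 0.25, 95% interval −0.27 to 0.77, limma adjusted p = 0.453), and the group closest to a call was hGFAP with 0.76 (adjusted p = 0.0544). In hGFAP tumours Kdr passed in 4 of 14 alternatives, quantile normalization, 1 probe set for each gene, the mean of probe sets and a replicate block, and the adjusted p ran from 0.0373 to 0.570 over the 14. It also passed in 5 of the 27 fits that leave out 1 array. Between tumour groups Kdr ran the same way as Tek, 0.80 higher in hGFAP and Olig2 than in Math1 and Tlx3 tumours (95% interval 0.26 to 1.34), but the limma adjusted p was 0.196.

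Eng showed no called difference, and its intervals are wide. Its log2 signals were 5.72, 6.04 and 5.51 in Math1, 4.66, 5.69 and 3.57 in Tlx3, and 6.30 and 5.79 in Ptc1+/- tumours. In Olig2 tumours the range was 4.17 to 6.38 (median 5.57), and the hGFAP tumours ran from 3.63 over 5.28 to 6.46, against 5.03, 5.59 and 6.12 in the controls. The tumours spread to both sides of the controls, and the difference was −0.13 (SE 0.35, 95% interval −0.85 to 0.59, limma adjusted p = 0.798). A second Eng probe set was at the floor on 20 arrays and was not tested.

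Tie1 and Pecam1 could not be followed on these arrays. Tie1 was at the floor on 18 of 21 tumour arrays and 6 of 6 controls. Pecam1 was at the floor on 11 of 21 tumour arrays and on none of the controls, and averaged 3.75 ± 0.50 in the tumours, against 4.36 ± 0.49 in the controls (SD, n = 21 and 6). Both are defining endothelial genes. Other genes of this cell type could be read, since 12 of 15 in the endothelial marker list had enough signal to be tested.

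Slco1c1 had log2 signals of 6.70, 6.51 and 7.07 in Math1, 6.75, 6.89 and 6.20 in Tlx3, and 5.85 and 5.97 in Ptc1+/- tumours. The Olig2 tumours ran from 6.52 over a median of 6.87 to 7.38 and the hGFAP tumours from 6.13 over 7.04 to 7.22, against 6.34, 7.21 and 7.46 in the controls. Both Ptc1+/- arrays were below every other array, as was so in the comparison with the SmoM2 tumours for 0.976% of all genes, while the SmoM2 tumours overlapped the controls. The difference over all tumours was −0.48 (SE 0.18, 95% interval −0.85 to −0.10, limma adjusted p = 0.0343), and it lost the call when any of 7 single arrays was left out, with an adjusted p of up to 0.102.

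In the Ptc1+/- tumours the Slco1c1 difference was −1.19 (adjusted p = 0.00434), and no SmoM2 group passed the test, with differences of −0.49 to −0.15. The direct test of Ptc1+/- against SmoM2 tumours gave −0.90 (95% interval −1.49 to −0.30), with an adjusted p of 0.234. Without Ptc1+/- replicate 1, the remaining array gave −1.14 against the controls (adjusted p = 0.051). All 10 astrocyte and Bergmann glia markers were lower in tumours (median −1.81), where 25.0% of all genes were called lower. Their median was −2.95 in Ptc1+/- tumours and −1.93 to −0.99 in the SmoM2 groups, in which Slco1c1 did not pass. The summed linear signal of these markers was 5190 to 5566 in Ptc1+/- tumours and 5837 to 15642 in the SmoM2 tumours, against 19964 to 26470 in the controls. Their part in the Slco1c1 difference was not tested.

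**Figure D3:**
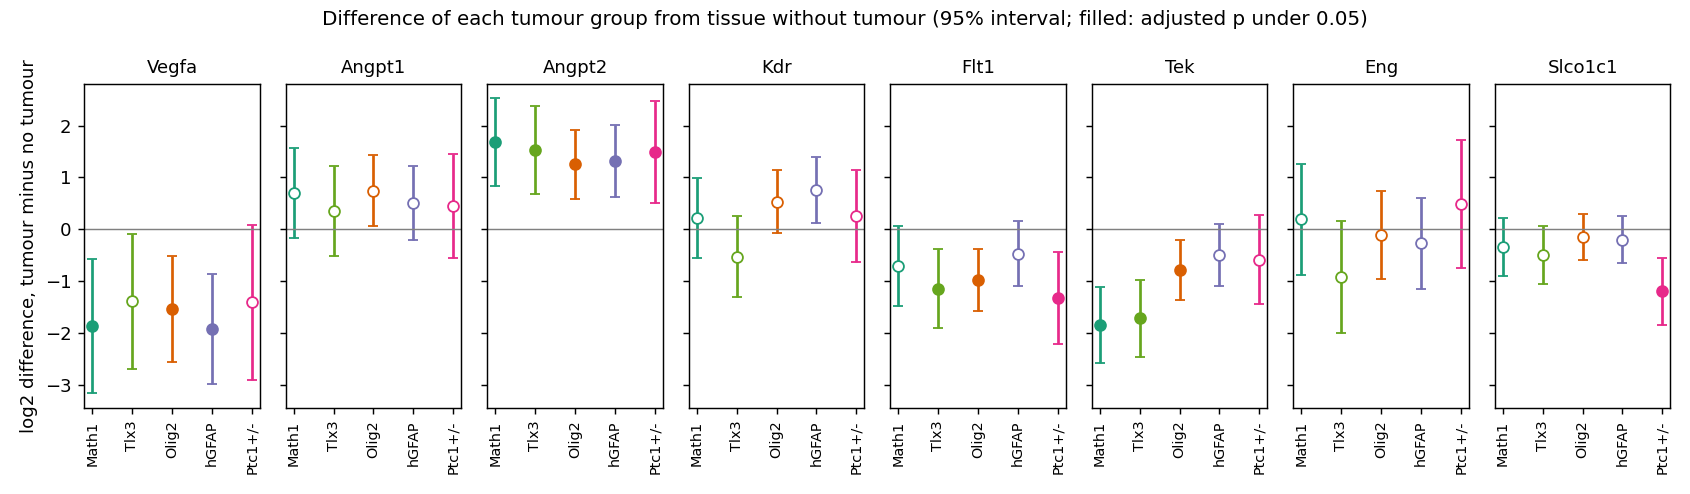
Log2 difference of each tested gene (1 panel each, vertical axis) in each tumour group against cerebellum without tumour, with 95% intervals from the limma model; filled points have an adjusted p under 0.05. Angpt2 lies above 0 in all 5 groups, Vegfa and Tek below it, with Tek at −1.84 in Math1 and −0.50 in hGFAP tumours.

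Counted by tumour group, Math1 tumours had 3 of the 8 genes called against controls (36.2% of all genes), Tlx3 tumours 3 (38.2%), Olig2 tumours 4 (48.5%), hGFAP tumours 2 (40.1%) and Ptc1+/- tumours 3 (34.6%). These comparisons share the 6 controls. Between tumour groups none of the 8 genes was called by limma. When hGFAP and Olig2 were set against Math1 and Tlx3 tumours (0.0296% of all genes called), Tek and Kdr had an unadjusted p under 0.05. For Ptc1+/- against SmoM2 tumours (0.318% called) Slco1c1 did, for hGFAP against Olig2 (2.42% called) and Tlx3 against Math1 (0.00% called) no member did, and for the F test over the SmoM2 groups (0.591% called) Tek and Kdr did.

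The vessel markers did not all follow these genes. In the endothelial list 1 of 12 tested genes was higher and 2 were lower in all tumours, with a median of −0.16. Over all genes, 26.4% were called higher and 25.0% lower, the shares to set beside this and the next counts. Sox18, a transcription factor of vessel and lymphatic formation, was 3.82 higher, and its relative Sox17 fell by 1.52 or more and Itm2a fell by 0.69 on the log2 scale. The mean signal of all 12 was 6.13 to 6.61 in the tumour groups, against 6.38 ± 0.12 in the controls, and without Sox18 that of the other 11 was 5.76 to 6.37 in the tumour groups, against 6.42 ± 0.10 in the controls (SD, n = 6). The likeness of the 12-gene means thus rested on Sox18. Among other VEGF and angiopoietin genes, 2 of 7 were called: Angptl4, a secreted relative of the angiopoietins, was 0.89 higher (adjusted p = 0.0366) and Ptprb, the phosphatase that dampens Tek, fell by 1.22. Nrp1, a VEGF co-receptor, and Vegfc, a ligand of lymphatic vessels, had 0.66 and −0.59 and did not pass, though 3 of the 4 probe sets of Nrp1 were called higher.

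Of 14 genes of sprouting and of arterial identity, 3 were higher and 4 lower (median 0.12). That is near the shares over all genes, 26.4% higher and 25.0% lower, which also stand beside the next 2 counts. Cxcr4, the chemokine receptor that also marks granule neuron precursors, was 4.76 higher and Jag1, a Notch ligand, 2.32 higher, while Unc5b, a netrin receptor, fell by 2.22 or more and S1pr1, a receptor that seals vessels, fell by 1.35. Of 11 blood-brain barrier and transport genes, 3 were higher and 4 lower (median −0.12): Slc7a5, an amino acid carrier, had 1.34 and Tjp1, a tight junction adaptor, 0.59, and Ocln, a tight junction protein, had −2.29 and Abcb1a, a drug efflux pump, −1.54 or lower. Among 9 mural cell genes, which mark pericytes and smooth muscle, Cspg4 was higher (0.85) and 3 were lower, Pdgfrb at −1.54 or lower and Vtn at −1.25 (median −0.09). Kcnj8, at 0.78, did not pass.

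Of 7 basement membrane genes 4 were higher and 2 lower over all tumours (median 0.49), where 26.4% of all genes were called higher and 25.0% lower. The counts differed by group, with 1 higher and 3 lower in Tlx3 (38.2% of all genes called either way) and 0 higher and 2 lower in Ptc1+/- tumours (34.6%). Col4a1 and Col4a2, the collagen IV chains around vessels, were 2.17 and 1.24 higher, and Lamb1 and Sparc had −1.69 and −0.90. Of 7 angiogenesis inhibitors 1 was higher and 4 were lower (median −0.90): Col18a1, the source of endostatin, had −1.12 and Serpinf1 (PEDF) −1.09, while Adamts1, a protease that binds VEGF, had 1.20. Timp3, which blocks VEGF binding to Kdr, was lower as well, at −0.57. Of these list genes and those of the other lists, 70 were called in all, in a comparison that called 51.4% of all genes. That count is only the base for the next ones and no result about the lists. Without rescaling, which shifts the median of all genes to −0.33, 12 of the higher calls were lost, those of Angptl4, Tjp1, Cspg4, Ldha, Col3a1 and Lum among them, and with quantile normalization 1 call was lost.

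**Figure D4:**
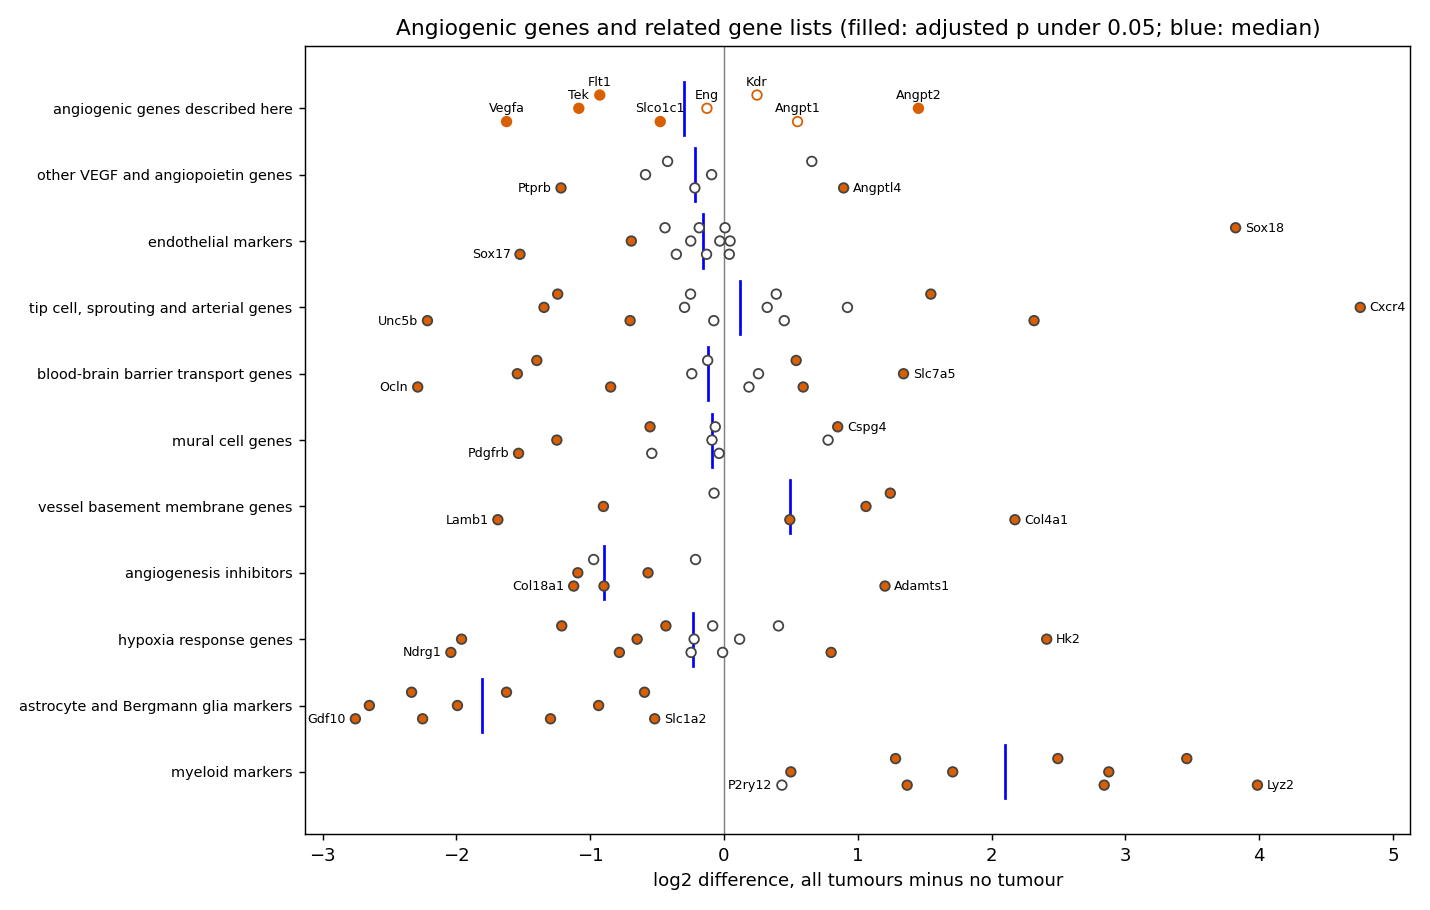
Log2 difference (horizontal axis), all tumours minus cerebellum without tumour, of the 8 tested genes (top row, named) and of each related list, 1 point per gene; filled points have an adjusted p under 0.05, blue bars are medians and the extremes of each list are named. Endothelial markers centre at −0.16 with Sox18 at 3.82, and astrocyte and myeloid markers at −1.81 and 2.10.

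Other cell types moved with the tumour comparison, in which 26.4% of all genes were called higher and 25.0% lower. Myeloid markers, 9 of 10, were higher in tumours (median 2.10), with a summed linear signal of 3407 to 10545 in tumours, against 1189 to 1652 in the controls. Mature granule neuron markers, 6 of 6, were lower (median −3.97), with Gabra6 at −5.46. Myeloid cells, astrocytes and neurons can each make Vegfa or angiopoietins, and their part in the differences above was not tested.

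Within groups, the members did not move as a block. Over the 27 arrays, taken as deviations from group means, Pearson r between pairs of the 8 genes ran from −0.46 for Angpt2 and Eng to 0.57 for Kdr and Tek, and was 0.53 for Vegfa and Slco1c1. The genes most like each member by this measure were Elavl4 (0.774), Pnrc1 and Stk39 for Vegfa, Zfp280d (0.743), Zfp292 and Farp2 for Angpt2, and Insig2 (0.804), Smim27 and Gria4 for Angpt1. They were Naip6 (0.782), Col1a2 and Pex11g for Tek, Ubxn2a (0.836), Tmem184c and Rab11fip2 for Flt1, and Prima1 (0.736), Wdr25 and Olfr78 for Kdr. For Eng they were Erc1 (0.770), Septin11 and Srebf2, and for Slco1c1 Tbata (0.806), Cherp and Dhcr7. These values are descriptions, since the arrays share brightness and RNA quality, and the highest r over all tested genes is high by selection.

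The arrays differed in quality. Before scaling, their trimmed mean signals ran from 42.6 to 206.0, and 7 arrays (Olig2 replicates 3 to 7, hGFAP 4 and Ptc1+/- 2) were under 85. The log2 ratio of 3′ to 5′ control probe sets, a sign of RNA degradation when high, ran from −0.15 to 1.78 in Olig2, 0.32 to 1.88 in hGFAP and 0.14 to 1.75 in the controls, and stayed under 0.46 in the Math1, Tlx3 and Ptc1+/- tumours. Without the 7 dim arrays Vegfa, Flt1 and Tek lost their call in the Olig2 tumours, which then held 2 arrays, at −0.83, −0.70 and −0.79 (adjusted p = 0.371, 0.136 and 0.144).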

How the data were processed

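For each array the authors deposited a linear intensity for 45101 probe sets, made with MAS5 per the submitters' processing notes; its version and scaling target are not given in the sources used here. Total RNA (Trizol, then RNeasy) was labelled with biotin, per the labels' protocols. No detection calls were used, so low intensities can be background.

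Trimmed means (2% off each end) differed 4.84-fold, so each array was rescaled to a common 123.6. Signals under the 20th percentile (10.3) were raised to it and log2 was taken. Probe sets above the table median (45.6, or 5.51 on the log2 scale) on at least 3 arrays were kept, 30107 in all, without 64 control probe sets. No 2 arrays held identical values. Probe sets were named by the platform annotation (34958 with 1 gene, 932 with several, 9211 not listed). Symbols were checked by Entrez number, which changed none. limma 3.58.1 in R 4.3.3 fitted 6 group means with trend and robust moderation (21 residual degrees of freedom, all group means weighted equally), two-sided, and a moderated F test over the SmoM2 groups. The fit was tried on simulated data of independent normal noise. Those data held no floor and no differences in array quality, so the trial cannot speak to either.

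The genes, lists, tests and naming rules were chosen with earlier results of these data known. The named genes are the 10 members with all their probe sets, the 2 highest and 2 lowest of each list, and the 3 nearest genes of each member (haemoglobin, immunoglobulin, Xist and Y genes left out). Itm2a, Timp3 and Epas1 were named, and the marker mean without Sox18 was chosen, after the values were seen. Alternatives changed scaling, floor, filter, probe set choice, moderation, weights, controls, covariates and arrays. Promoters are from RefSeq.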

Additional observations from a re-analysis of the deposited data

Results flagged for a closer look

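Of 24 sets of 1 gene in 1 group that were large enough to be examined for an array far from the others, 2 held one, where chance alone marks about 1 in 20. Control 6, from a Ptc1+/- mouse, had a Vegfa log2 signal of 6.81, with the nearest other control at 7.32. The hGFAP tumour replicate 4 had a Slco1c1 log2 signal of 6.13, with the nearest other hGFAP tumour at 6.88; this array is also among the 7 of lowest brightness.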

How the results depend on the processing

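Over 14 alternatives other than leaving out single arrays, the all-tumour differences of Vegfa (−1.96 to −1.16), Angpt2 (0.97 to 1.87) and Tek (−1.45 to −0.71) kept their direction and their call in 14 of 14, and Flt1 (−1.28 to −0.74) and Slco1c1 (−0.83 to −0.41) in 13 of 14. With only the controls of the Olig2 and hGFAP lines, 3 genes stayed called in all tumours and 1 in Olig2 tumours, and Flt1 (−0.83, adjusted p = 0.0696) and Slco1c1 (−0.56, adjusted p = 0.0671) were lost. Without rescaling, Kdr turned to −0.10, and 1 gene each was called in hGFAP tumours, in hGFAP and Olig2 against Math1 and Tlx3 (Angpt2), and in Ptc1+/- against SmoM2 tumours (Slco1c1). The choroid plexus and fibroblast lists then had 1 called gene each, the median of all genes was −0.33 in place of 0.02, and 28.2% of called probe sets were higher in place of 52.1%. In hGFAP and Olig2 against Math1 and Tlx3, 1 gene, Tek, was called with 1 probe set for each gene, the mean of probe sets, no trend, or array weights. Array weights gave 5 called genes in Math1, 5 in Tlx3, 1 in Ptc1+/- tumours and 1 among the SmoM2 groups, and Angpt1 passed (0.61, adjusted p = 0.0241). Without the 7 dim arrays 2 genes were called in Olig2 tumours. With the endothelial mean without Sox18 as covariate, chosen after seeing the data, 2 genes were called in all tumours, 1 in Tlx3 and 2 in Olig2 tumours, and Eng turned to 0.14 (adjusted p = 0.841). The share of all genes called in each setting is not given beside these counts or those in the next paragraph. They are therefore no result about these genes as a set. The causes were not tested.

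Leaving out each array in turn gave 4 to 5 called genes in all tumours, 2 to 3 in Math1, 2 to 3 in Tlx3, 3 to 5 in Olig2, 2 to 3 in hGFAP and 1 to 3 in Ptc1+/- tumours, 0 to 1 in hGFAP and Olig2 against Math1 and Tlx3, 0 to 1 among the SmoM2 groups, and 0 elsewhere. Replicate numbers do not pair the samples: 18 of 49 same-numbered pairs of arrays correlated above 0.1, and 3 of 27 arrays correlated best with their own number. With the replicate number as a block, 5 genes were called in all tumours, 5 in Olig2 and 3 in hGFAP tumours, and Vegfa was −1.70. Without the signal filter Pecam1 was −0.56 in all tumours (adjusted p = 0.0646) and −0.88 in hGFAP tumours (0.0199), and Tie1 was 0.14 (0.493). Signals near the floor limit Tie1, Pecam1, Tek and Angpt2 most.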

Other observations

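Genes induced by low oxygen, which include regulators that act beside Vegfa, went both ways in all tumours, with 2 of 14 higher and 6 lower (median −0.23, against 0.02 over all genes). Of all genes, 26.4% were called higher and 25.0% lower. Hk2, the first enzyme of glycolysis, was 2.41 higher and Ldha, which makes lactate, 0.80 higher, while Ndrg1 and Bnip3, a mitophagy receptor, had −2.04 and −1.96 and Epas1 (HIF-2 alpha) had −0.43, all called by limma. Of 5 fibroblast and meningeal genes, 3 were higher, Col3a1 by 1.11 and Lum by 0.91, and Col1a2 and Col1a1 had −0.48 and −0.26 and did not pass. None of the 6 choroid plexus genes was called by limma, and Ttr, at 1.93 (adjusted p = 0.411), varied widely between arrays.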
